A study of Mus musculus with 2 samples.

Results

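ATAC-seq, which reads open chromatin through insertions of the Tn5 transposase, gave 29415 accessible regions in regulatory T (Treg) cells that had experienced inflammation, and 1477 of them lay in intergenic sequence over 100 kb from the nearest start of a protein-coding transcript. They were chosen by position alone. Peaks that passed the authors' threshold on the irreproducible discovery rate (IDR), which scores how well a peak's rank repeats between 2 sets of reads, were merged where they overlapped or touched. The summit of the peak with the greatest fold enrichment had to lie outside every protein-coding gene body of GENCODE M21 on mm10, and beyond that distance from every coding start. These 1477 regions, called far regions here, made up 5.02% of all regions (95% exact binomial interval 4.77 to 5.28%).

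The cells were primary Treg cells of 1 adult male mouse aged 6 months, of the strain Foxp3CreERT2 x Rosa26YFP. Foxp3CreERT2 drives a drug-inducible Cre recombinase from the locus of Foxp3, the transcription factor that defines Treg cells, and Rosa26YFP is a Cre reporter. The labels give a bone marrow hematopoietic cell as the origin, and name neither the inflammation, any drug given nor the sort. There were 2 technical replicates of 1 biological replicate and 1 group, so no condition was compared, no p-value was computed and every interval below covers counting error only. No read counts were at hand, so the depth is unknown.

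Accessible DNA far from genes is known mostly for enhancers, which carry binding sites for transcription factors and contact promoters across long loops, and for sites of CTCF, a zinc finger protein that anchors such loops. In T cells RUNX and ETS factors keep many enhancers open, and AP-1, a dimer of the Fos, Jun and Batf families, joins them when the cell is stimulated through its receptor. Long genomic intervals with few genes often hold the distant enhancers of the developmental and signalling genes at their borders.

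Summit sequences are shown first, since several results below turn on what they hold. Each runs from 100 bp before to 100 bp after a summit, from RefSeq GRCm38.p6 (mm10), plus strand, and capitals mark matches on either strand to motifs of ETS (AGGAAGT), RUNX (TGNGGTT), the joint ETS-RUNX site (GGATGTGG), AP-1 (TGANTCA) or CTCF. A match is a description of letters, not a bound site. The first 4 belong to the far regions of greatest fold whose summit 31-mer (the 31 bases centred on it) occurs once in the assembled chromosomes, at chr1:102628173-102628373 (nearest coding gene Cdh20, and also the farthest of all far regions), chr17:16951350-16951550 (Zfp960), chr14:19278078-19278278 (Gm21738) and chr10:8065824-8066024 (Tab2). Copies in sequence missing from the assembled chromosomes were not counted, here or below, so a summit called unique may still have some. The fifth leads the largest cluster of far regions, at chr6:31157118-31157318 (Klf14).
Cdh20: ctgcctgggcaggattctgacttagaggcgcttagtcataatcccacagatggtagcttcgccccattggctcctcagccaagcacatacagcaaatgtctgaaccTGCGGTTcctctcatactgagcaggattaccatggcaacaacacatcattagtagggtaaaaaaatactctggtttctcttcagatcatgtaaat
Zfp960: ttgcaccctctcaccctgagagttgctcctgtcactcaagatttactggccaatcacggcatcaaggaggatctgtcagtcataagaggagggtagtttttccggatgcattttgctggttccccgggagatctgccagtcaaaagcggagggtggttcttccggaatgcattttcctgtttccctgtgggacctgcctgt
Gm21738: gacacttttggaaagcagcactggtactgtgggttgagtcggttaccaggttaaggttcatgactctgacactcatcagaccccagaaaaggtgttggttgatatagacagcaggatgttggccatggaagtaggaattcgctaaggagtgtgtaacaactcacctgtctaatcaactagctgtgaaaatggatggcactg
Tab2: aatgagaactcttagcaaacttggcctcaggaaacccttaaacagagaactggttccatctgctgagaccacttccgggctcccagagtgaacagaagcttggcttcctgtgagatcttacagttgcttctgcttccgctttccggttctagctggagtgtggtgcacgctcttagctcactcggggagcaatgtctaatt
Klf14: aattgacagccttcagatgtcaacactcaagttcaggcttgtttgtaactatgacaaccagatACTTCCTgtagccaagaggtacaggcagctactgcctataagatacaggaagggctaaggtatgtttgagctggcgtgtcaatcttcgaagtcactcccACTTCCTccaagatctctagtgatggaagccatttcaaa
The Cdh20 region held 1 RUNX match 9 bp from its summit and the Klf14 region held 2 ETS matches, while the other 3 held none of the 5 motifs. Whether any of these sequences, the RUNX letters included, belongs to a copy of a repeated gene such as that of ribosomal RNA was not tested.

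The next 7 sequences were added after their values had been seen. They belong to regions with a unique summit, the highest ones nearest to Myc (chr15:62457181-62457381), Gata3 (chr2:9493851-9494051) and Ets1 (chr9:32798300-32798500), and examples among the highest with an ETS-RUNX match (chr9:117902379-117902579, nearest Azi2), an AP-1 match (chr3:52555142-52555342, Foxo1), an ETS match (chr3:60320299-60320499, Mbnl1) and, a CTCF match (chrX:94865590-94865790, Zxdb).
Myc: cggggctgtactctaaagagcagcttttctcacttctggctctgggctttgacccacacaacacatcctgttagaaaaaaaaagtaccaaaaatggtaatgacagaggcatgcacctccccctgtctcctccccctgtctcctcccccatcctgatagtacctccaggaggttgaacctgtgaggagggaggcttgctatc
Gata3: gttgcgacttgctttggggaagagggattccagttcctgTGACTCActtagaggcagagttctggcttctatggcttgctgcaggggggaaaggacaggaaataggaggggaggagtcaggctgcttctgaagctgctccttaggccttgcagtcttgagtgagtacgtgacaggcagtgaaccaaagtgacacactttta
Ets1: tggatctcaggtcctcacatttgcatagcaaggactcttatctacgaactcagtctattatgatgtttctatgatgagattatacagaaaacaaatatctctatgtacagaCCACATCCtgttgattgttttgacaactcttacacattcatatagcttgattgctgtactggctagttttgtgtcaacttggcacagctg
Azi2: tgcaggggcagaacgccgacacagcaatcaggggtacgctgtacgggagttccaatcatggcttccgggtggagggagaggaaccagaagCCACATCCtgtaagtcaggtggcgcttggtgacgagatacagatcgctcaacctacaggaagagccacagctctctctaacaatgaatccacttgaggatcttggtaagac
Foxo1: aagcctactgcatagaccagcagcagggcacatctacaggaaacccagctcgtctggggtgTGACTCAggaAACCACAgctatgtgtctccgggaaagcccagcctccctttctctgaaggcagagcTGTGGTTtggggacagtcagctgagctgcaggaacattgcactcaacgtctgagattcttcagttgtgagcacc
Mbnl1: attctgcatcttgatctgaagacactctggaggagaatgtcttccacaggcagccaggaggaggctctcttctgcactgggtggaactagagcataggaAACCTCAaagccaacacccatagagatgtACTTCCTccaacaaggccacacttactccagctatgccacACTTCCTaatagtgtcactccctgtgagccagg
Zxdb: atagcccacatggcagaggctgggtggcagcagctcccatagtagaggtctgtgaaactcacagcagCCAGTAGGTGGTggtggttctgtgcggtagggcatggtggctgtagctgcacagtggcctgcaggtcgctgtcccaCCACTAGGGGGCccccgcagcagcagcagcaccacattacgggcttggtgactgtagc
In the Foxo1 region the AP-1 letters and a RUNX match stood side by side, with another RUNX match on the other side of the summit. The Zxdb region held 2 CTCF matches, and the Azi2 and Ets1 regions each held the joint site within 15 bp of the summit. The highest region beside Myc held none of these letters.

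Far regions were sparse, and their median height was like that of near intergenic regions. Sequence that meets the positional rule covered 854.7 Mb, or 32.3% of the assembled genome, and held 1.73 regions per Mb, against 9.80 per Mb in intergenic sequence 1 to 100 kb from a coding start and 11.1 per Mb over the genome. The share of regions in far sequence was thus 0.156 of the share of the genome it takes up (0.148 to 0.163). Median fold enrichment over background, as the authors' peak caller gave it, was 12.8 in far regions (12.50 to 13.2), 12.6 in near intergenic regions and 15.4 in promoter regions. Median width was 584 bp in far regions, 563 bp in near intergenic regions and 909 bp in promoter regions. More than 1 summit was called in 42.5% of far regions, against 45.4% of near intergenic and 79.4% of promoter regions. In height and width, far regions lay close to other distal regions and apart from promoters.

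The decline in number had no counterpart in height. Intergenic sequence held 12.6 regions per Mb at 1 to 10 kb from a start, 10.6 at 10 to 50 kb and 6.49 at 50 to 100 kb. Beyond the limit it held 3.42 per Mb at 100 to 200 kb (857 regions), 1.46 at 200 to 500 kb (502 regions), 0.498 at 500 to 1000 kb (90 regions) and 0.357 over 1000 kb (28 regions). Over these last 4 distances the median fold was 12.6, 12.9, 13.2 and 15.7. The far region just inside the limit, chr10:19491559-19492216, had its summit 100011 bp from Ifngr1, the interferon gamma receptor gene, and a fold of 7.29. The region just outside, chr10:122578246-122579172, lay 99936 bp from Ppm1h with a fold of 16.4. The median far region lay 181 kb from a start, and the middle 50% lay between 131 and 263 kb.

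**Figure D1:**
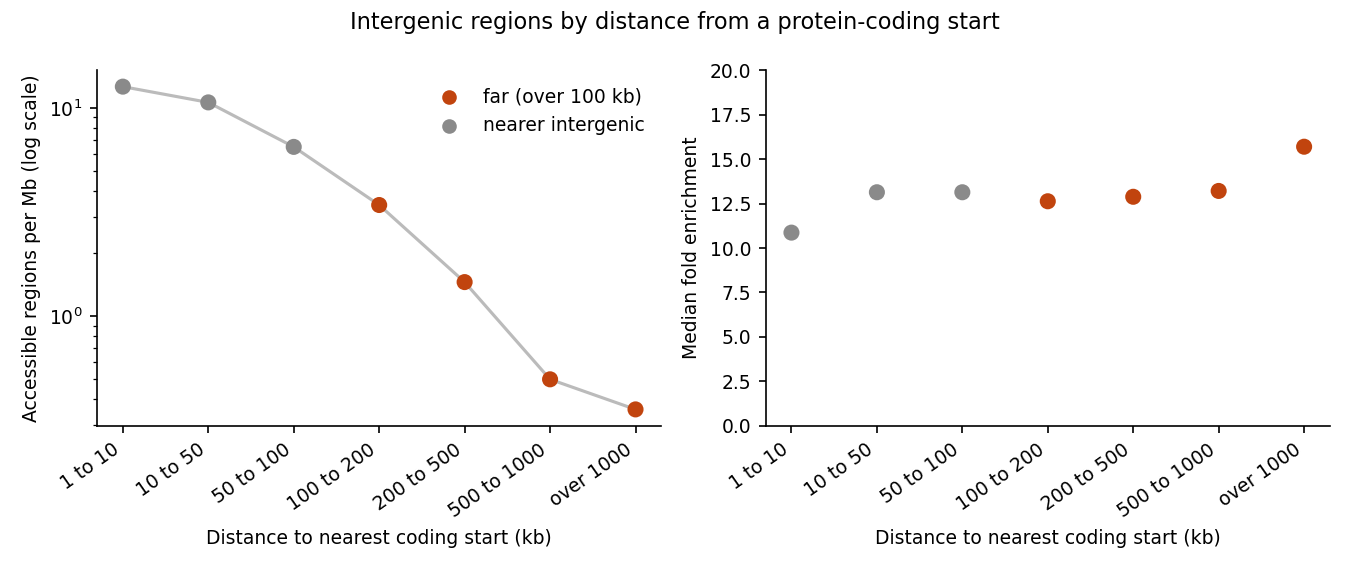
Accessible regions per Mb of intergenic sequence (left, log scale) and their median fold enrichment (right) by distance in kb to the nearest protein-coding start, with far regions in orange and nearer ones in grey. Regions per Mb decline from 12.6 at 1 to 10 kb to 0.357 over 1000 kb, while the median fold stays between 10.9 and 15.7.

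Base composition and repeat content at far summits differed from those of far sequence as a whole. Repeats masked in the reference covered 43.6% of far sequence. Of far summits 9.88% lay in one, against 9.23% of near intergenic and 7.42% of all summits. Far summits had a median GC content of 47.3%, taken over the same length as the sequences above, against 39.4% for far sequence as a whole. Near intergenic summits had a median GC of 49.8% and promoter summits 63.7%. In 58 far regions, or 3.93%, the summit 31-mer occurred more than once in the genome, against 2.65% of near intergenic and 1.55% of promoter regions. Reads from such copies may not be placed uniquely.

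At 98.3% of far regions, and 98.7% of all regions, the −log10 p of one of the 2 ranked sets of reads was less than 2 times the other's. The Spearman correlation between the sets was 0.910 over the 1477 far regions and 0.941 over all. The IDR threshold keeps peaks whose ranks repeat between such sets, so these values follow in part from the choice of peaks. Since the lists do not tie the sets to the technical replicates, they may be splits of pooled reads. The longer pseudoreplicated list held 1475 of the 1477 far regions (99.9%) and 29364 of all 29415 (99.8%). Over the 19 autosomes, far regions per Mb of far sequence ranged from 0.521 on chromosome 11 to 3.87 on chromosome 10. Chromosomes X and Y, each present once in a male, had 0.668 and 0.0168 per Mb. On Y this was 1 far region in 59.5 Mb of far sequence.

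RUNX and AP-1 letters were more frequent at far than at near intergenic summits, and CTCF motifs were less frequent. Within 50 bp of the summit, RUNX letters stood in 275 far regions, or 18.6% (16.7 to 20.7%), against 13.7% of near intergenic, 15.3% of regions deep in a coding gene (in a gene body but over 100 kb from a start), 4.81% of promoter and 10.97% of all regions. ETS letters were found in 17.5% of far regions (15.6 to 19.5%), 14.6% of near intergenic, 18.8% of deep genic, 17.8% of gene body (deep ones included), 6.35% of promoter and 12.8% of all regions. AP-1 letters stood in 11.7% of far (10.1 to 13.5%), 8.42% of near intergenic, 8.17% of deep genic, 2.22% of promoter and 6.35% of all regions. The joint ETS-RUNX site was present in 5.89% of far (4.74 to 7.22%), 4.22% of near intergenic, 4.17% of deep genic and 3.20% of all regions. CTCF motifs marked 83 far regions, or 5.62% (4.50 to 6.92%), against 10.5% of near intergenic, 5.22% of deep genic, 7.95% of gene body (deep ones included), 1.82% of promoter and 6.204% of all regions, and the far interval held the deep genic and the all-region value.

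These letters were concentrated at the summit. In windows of the same length centred 500 bp to either side, RUNX letters stood in 4.77%, ETS in 2.47%, AP-1 in 3.08%, the joint site in 0.508% and CTCF in 0.102% of windows. Far minus near intergenic, the share with RUNX letters was 4.92 percentage points higher (2.80 to 7.14) and with AP-1 letters 3.29 points higher (1.56 to 5.15). The difference for CTCF was −4.87 points (−6.203 to −3.39). For the joint site it was 1.67 points (0.42 to 3.07), and 1.04 points (−0.16 to 2.40) once regions within 50 kb of antigen receptor segments were left out, an alternative chosen after seeing the data. Over 12 alternative settings, this one included, the RUNX interval excluded 0 in all, the CTCF interval reached 0 in 1, the AP-1 interval in 3 and that of the joint site in 5. Neighbouring regions share sequence and locus, which these intervals do not allow for. The GC content given above also differed between the classes, and its part in these shares was not tested.

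**Figure D2:**
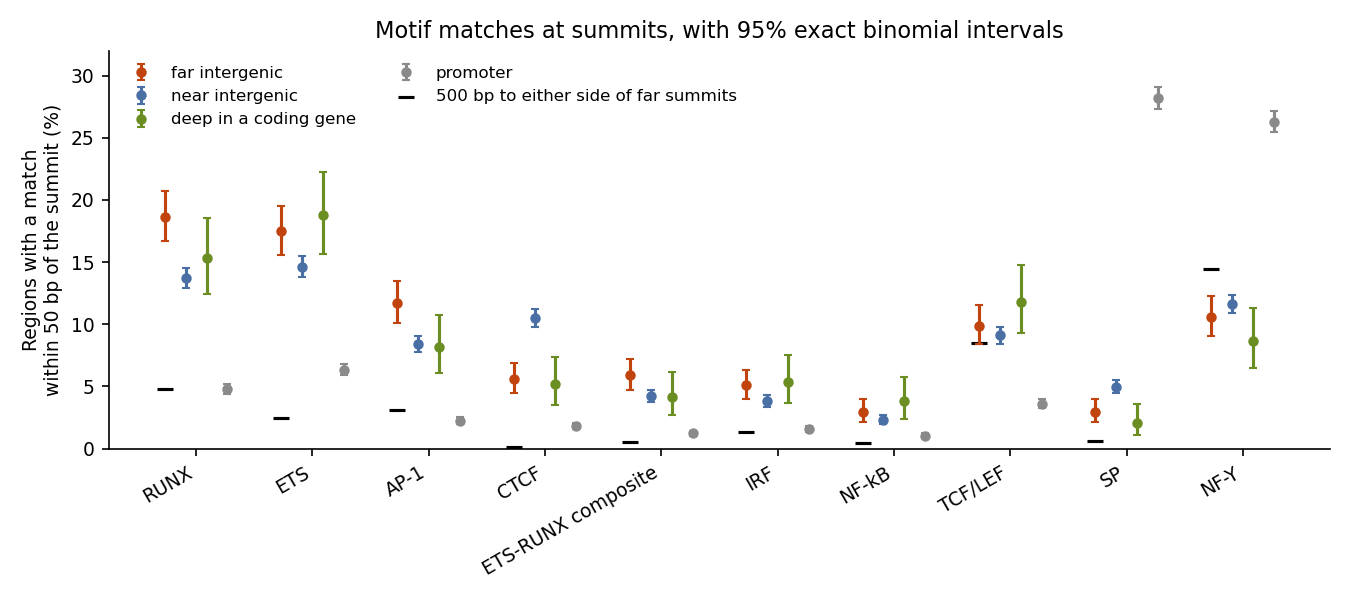
Share of regions with a motif match within 50 bp of the summit, in percent, for far intergenic, near intergenic, deep genic and promoter regions, with 95% exact binomial intervals; black dashes give the windows 500 bp from far summits. RUNX matches stand in 18.6% of far and 13.7% of near intergenic regions, and CTCF matches in 5.62% of far and 10.5% of near intergenic regions.

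Other motifs fell into those found more often at far summits than beside them and those that were not. IRF motifs, bound by interferon regulatory factors, stood in 5.08% of far summits and 1.32% of flanking windows. NF-kB motifs stood in 2.98% and 0.474%. TCF/LEF letters (CTTTGA) were found in 9.88% of far summits and 8.53% of flanks, STAT letters (TTCNNNGAA) in 4.27% and 4.03%, GATA letters (AGATAA) in 5.75% and 5.92%, and NFAT letters (TGGAAAA) in 2.71% and 3.35%. For these 4 factors the summit held the letters about as often as its surroundings. Motifs typical of promoters were less frequent at far summits. SP letters (GGGCGGG) stood in 2.98% of far against 28.2% of promoter regions, and NF-Y letters (CCAAT) in 10.6% against 26.3%. NF-kB, STAT and NFAT motifs stood in 2.00%, 2.78% and 1.44% of all regions, and IRF, TCF/LEF and GATA motifs in 3.26%, 7.16% and 3.32%. SP letters stood in 12.8% and NF-Y letters in 16.4% of all regions.

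At least 1 of the ETS, RUNX, joint and AP-1 motifs was found in 645 far regions, or 43.7%. The 83 far regions with a CTCF motif were largely a separate set, as 73 of them had none of these 4. They were narrower, with a median width of 410 bp, against 598.5 bp in far regions with no CTCF motif, and 8.43% of them stood in clusters of 3 or more, against 24.03%. Neither kind of motif was present in 759 far regions, or 51.4%. Combined shares of this kind over all regions are not reported here, so neither value can be called particular to far regions. When far regions were ranked by fold and cut into 4 groups of like size, RUNX letters stood in 13.9% of the lowest (10.5 to 17.8%), 19.7% and 18.2% of the middle groups and 22.7% of the highest (18.5 to 27.3%). The joint site stood in 2.99%, 7.30%, 4.34% and 8.92%, in the same order, so neither share rose at every step.

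CTCF matches thinned out with distance while RUNX matches did not. The share with a CTCF motif was 12.1% at 1 to 10 kb, 10.9% at 10 to 50 kb, 7.35% at 50 to 100 kb, 6.42% at 100 to 200 kb, 4.38% at 200 to 500 kb, 5.56% at 500 to 1000 kb and 3.57% over 1000 kb. The share with RUNX letters was 13.9%, 13.6%, 13.6%, 15.99%, 21.7%, 18.9% and 42.9% over the same distances. The last value rests on 12 of 28 regions, and 6 of those 12 lay in the immunoglobulin heavy chain locus. Outside antigen receptor loci 6 of 21 regions over 1000 kb held RUNX letters. These shares come from the same pooled list, and nothing was tested over distance.

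**Figure D3:**
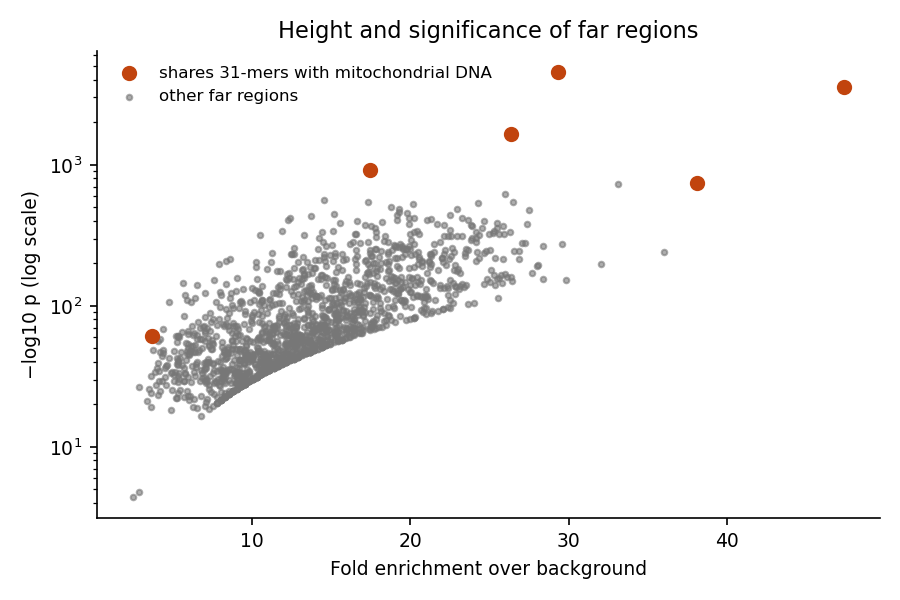
Fold enrichment over background (x) and −log10 p (y, log scale) of each of the 1477 far regions as the authors' caller gave them. The 6 regions that share 31-mers with mitochondrial DNA, in orange, include the 5 with the greatest −log10 p, from 744 to 4549.

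The most significant far regions were sequences shared with mitochondrial DNA. The nuclear genome carries old copies of pieces of the mitochondrial genome, and mitochondrial DNA, which has no nucleosomes, is abundant in ATAC-seq libraries. Of the 1477 far regions 6 shared at least 1 31-mer with the mitochondrial genome, against 6 of 7219 near intergenic, 6 of 9917 gene body and 1 of 10802 promoter regions. The highest, chr12:97061375-97061857, lay 1182 kb from Galc and had a −log10 p of 4549, the greatest of all 29415 regions, with 2266 and 2345 in the 2 sets. Of its 453 31-mers 304, or 67.1%, occur in the mitochondrial genome, and in the sequence at its summit (chr12:97061468-97061668, plus strand) every base lies in such a match, marked in capitals. This sequence too was added after its values had been seen.
Galc: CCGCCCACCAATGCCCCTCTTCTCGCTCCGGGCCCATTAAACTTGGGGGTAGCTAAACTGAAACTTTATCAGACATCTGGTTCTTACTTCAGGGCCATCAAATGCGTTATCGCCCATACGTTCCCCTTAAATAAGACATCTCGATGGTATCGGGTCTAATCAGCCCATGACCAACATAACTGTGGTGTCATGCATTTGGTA
The region of greatest fold, chr5:60042658-60043155 near G6pd2, had a fold of 47.4 and a −log10 p of 3560, and shared 37.2% of its 31-mers. Another 3 lay side by side 830 to 831 kb from Tyrp1 on chromosome 4, with folds of 26.4, 17.5 and 3.73, and 1 lay 940 kb from Nxph1 with a fold of 38.1. How many of the reads at these 6 regions came from mitochondria was not tested. Without them the greatest −log10 p was 726, at the Zfp960 region, and the median fold was 12.8.

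Apart from these, the highest far regions were scattered over the genome. Only mitochondrial DNA was searched for shared sequence. Whether the regions named next resemble other repeated sequence, such as the genes of ribosomal RNA, was not tested. The farthest region, chr1:102628136-102628395, lay 2140 kb from Cdh20, a cadherin gene, and had a fold of 36.0 with −log10 p of 107 and 137.2 in the 2 sets. The Zfp960 region, chr17:16951094-16951784, had a fold of 33.1 and stood 89 bp from the start of the long noncoding RNA gene BC002059. A region 417 kb from Pdcd1, the gene of the inhibitory receptor PD-1, had a fold of 32.03 and 2 genomic copies of its summit. Next came regions nearest to Gm21738 (29.8), Tab2, an adaptor of the kinase TAK1 (29.6), Mbnl1, a splicing regulator (28.4), and Tgfbr2, a subunit of the receptor for TGF-beta (28.4). The other regions among the 5 farthest lay 1805 kb from Cntnap5b (fold 17.3), 1766 kb from G6pd2 (above), 1763 kb from Flrt2 (8.58, summit in 2 copies) and 1638 kb from Kcnt2 (19.1).

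Far from coding genes did not mean far from every annotated gene. The summit lay inside another annotated gene in 375 far regions, or 25.4%, and in 357 of them that gene was classed as long noncoding. In 155 regions, or 10.5% (8.98 to 12.2%), it lay within 1000 bp of a noncoding transcript start. That start was of a gene classed as long noncoding in 99, an immune receptor segment in 30 and a pseudogene in 29. Pseudogene segments were counted under both of the last classes. The long noncoding class of starts took in the annotation's types TEC and processed transcript. Its members included Zswim6 (fold 14.6, −log10 p 559) and Trerf1 (folds 17.2 and 6.61), both typed as processed transcript. Whether such genes also have coding transcripts was not tested. Matching shares for all regions, or for far sequence itself, are not reported here, so these counts have no background beside them. Lncpint held 18 far regions, Gm14005 held 15 and Pvt1, the long noncoding gene downstream of Myc, held 14. Among starts, Gm5165 had a region of fold 26.5, Gm5444 one of 25.9, Gm13293 near Prkcq one of 20.03 and Gm4258 near Ptprc one of 19.5. There were 124 far regions, or 8.40%, that also lay outside every annotated gene and over 100 kb from every annotated start of any kind.

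Antigen receptor loci, whose variable segments are not classed as protein-coding genes, held 45 far regions. The immunoglobulin heavy chain locus (Igh) held 24, with a median fold of 13.5 and a maximum of 27.03, the T cell receptor alpha and delta locus (Tra/Trd) held 18, with a median of 15.5 and a maximum of 23.5, the T cell receptor beta locus 2 and the immunoglobulin kappa locus 1. In Igh 15 of 24 regions had RUNX letters and 11 had the joint ETS-RUNX site, so that 11 of the 87 far regions with that site lay there. In Tra/Trd the counts were 6 and 0 of 18, and over all far regions the shares were 18.6% and 5.89%. Summits had more than 1 genomic copy in 6 of the 24 Igh regions and in 14 of the 18 Tra/Trd regions. Because of these loci Zfp386, with 17 far regions, and Olfr1507, an olfactory receptor gene also with 17, rank high as nearest coding genes.

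Far regions stood apart from other far regions about as often as not. Those with at most 12.5 kb between them were chained, and regions of other classes were ignored. Of the far regions 753 (51.0%) were single, 191 chains were pairs, and 342 (23.2%) formed 86 clusters of 3 or more. A neighbour of any class lay within 12.5 kb of 50.3% of far, 45.6% of deep genic, 67.1% of near intergenic and 62.8% of all regions. Clustered regions had a lower median fold, 10.4 against 14.4 for regions that stood alone, but a higher median −log10 p, 75.1 against 65.3. A CTCF motif marked 2.05% of clustered regions and 6.51% of single ones.

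The largest cluster, chr6:31146764-31221888, held 14 far regions within 75.1 kb between Klf14, a Krüppel-like factor gene, and Mkln1, and all of its folds lay between 4.22 and 15.7. None of the 14 had a CTCF motif and 3 had an ETS, RUNX, joint or AP-1 motif, against 5.62% and 43.7% of all far regions. A cluster of 9 lay 205 to 245 kb downstream of Ets1, at chr9:32901114-32941956, with folds of 5.34 to 17.3. Clusters of 7 stood near Tbl1xr1, a corepressor subunit gene, Myc (chr15:62164694-62196237), Ube2e3 and Rplp1. Those of 6 included clusters near Nrp1, near Bcl6, a repressor gene of T and B cells, and between Gm5426 and Btg1.

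Far regions filled few of the gene deserts. Far sequence fell into 2057 uninterrupted stretches between coding genes, and 446 of them, or 21.7%, held a far region. Of 242 stretches of at least 1 Mb, 165 held none, and 70.7% of all far sequence lay in stretches without one. The 10 stretches with most held 202 far regions, or 13.7%. First came the stretch between Foxo1 and Cog6 (24 regions in 0.549 Mb), then Adam6a and Zfp386 (23, the Igh locus), Myc and Gsdmc (23 in 1.62 Mb), Klf14 and Mkln1 (23 in 0.240 Mb), Id2 and Rnf144a (21), Olfr1507 and Dad1 (19, the Tra/Trd locus), Ptger4 and Dab2 (18), Gm5426 and Btg1 (18), Zeb2 and Acvr2a (17) and Tbc1d1 and Klf3 (16). The longest empty stretches lay between Tenm3 and Aga (4.47 Mb), Celf4 and Pik3c3 (4.32 Mb) and Olfm4 and Pcdh17 (4.24 Mb).

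Each far region was given to the coding gene with the nearest start, a rule of position that does not say which promoter it acts on. Of 3215 genes to which any far sequence could be given, 547 had at least 1 far region (17%) and 172 had 3 or more (5.35%). The 15 genes with most held 231 far regions, or 15.6%: Myc 26, Zfp386 17, Olfr1507 17, 3110018I06Rik 16, Gata3 15, Trib2 15, Cog6 15, Ets1 15, Ptger4 14, Btg1 14, Rplp1 14, Klf14 14, Id2 13, Acvr2a 13 and Rasa1 13. Several are regulators of lymphocytes, and others, such as Cog6 of the Golgi and the ribosomal protein gene Rplp1, share a stretch with one or are widely expressed. The highest regions of Trib2, a pseudokinase gene, Rasa1, which restrains Ras, and Acvr2a, an activin receptor gene, had folds of 22.5, 18.8 and 24.3.

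Myc, which drives cell growth, had 6 far regions upstream and 20 downstream, spread from 503 kb upstream to 837 kb downstream of its start. The 14 closest downstream ones, at 105 to 284 kb, all lay inside Pvt1 and had folds of 4.58 to 20.1. The highest region, chr15:62457109-62457561, stood alone at 470 kb with a fold of 22.1 and −log10 p of 157 and 154 in the 2 sets. Another 5 lay at 743 to 837 kb, and the 3 regions beyond them were nearer to Gsdmc, with folds of 16.7, 10.6 and 14.6. Stretches beyond Myc are known to hold enhancers that act in blood cells. ETS letters were found at 8 of the 26 summits, RUNX letters at 2, AP-1 letters at 3 and a CTCF motif at 0. Over all far regions these shares were 17.5%, 18.6%, 11.7% and 5.62%. The joint ETS-RUNX site stood at the regions 315 kb upstream and 743 kb downstream.

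Gata3, a transcription factor of T cells that is also used by Treg cells in tissues, had 15 far regions, all downstream, from 129 to 1124 kb. Its median fold of 16.6 was above the 12.8 of far regions as a whole. The highest, at chr2:9493729-9494100 and 385 kb, had a fold of 25.4, with −log10 p of 69.8 and 76.0 in the 2 sets. The most significant, chr2:9593794-9594609 at 284 kb, had a fold of 19.3 and −log10 p of 269.6 and 179 in the 2 sets. None of the 15 was in a cluster. An enhancer active in T cells is known far downstream of Gata3 in the mouse, and whether any of these regions is that element was not tested.

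Ets1, which encodes an ETS factor of lymphocytes, had 15 far regions, all downstream, from 102 to 399 kb. The highest, chr9:32798103-32798610, had a fold of 19.7 with −log10 p of 57.3 and 45.5. Its 9 clustered regions, described above, were lower, and 7 of them had a fold under 10. Id2, an inhibitor of E proteins that is needed for effector Treg cells, had 13 far regions, all upstream, from 117 to 342 kb, led by chr12:25294414-25294924 with a fold of 25.1 and −log10 p of 76.4 and 109.7. Maf, a transcription factor of effector Treg cells, had 10 regions downstream at 176 to 316 kb and 1 upstream at 119 kb. Its highest were chr8:115506548-115507500, at 21.3, and chr8:115397718-115398528, at 20.1 with −log10 p of 246 and 290. Ptger4, which encodes the prostaglandin E2 receptor EP4, had 14 far regions upstream, at 170.5 to 518 kb, with a highest fold of 24.1.

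**Figure D4:**
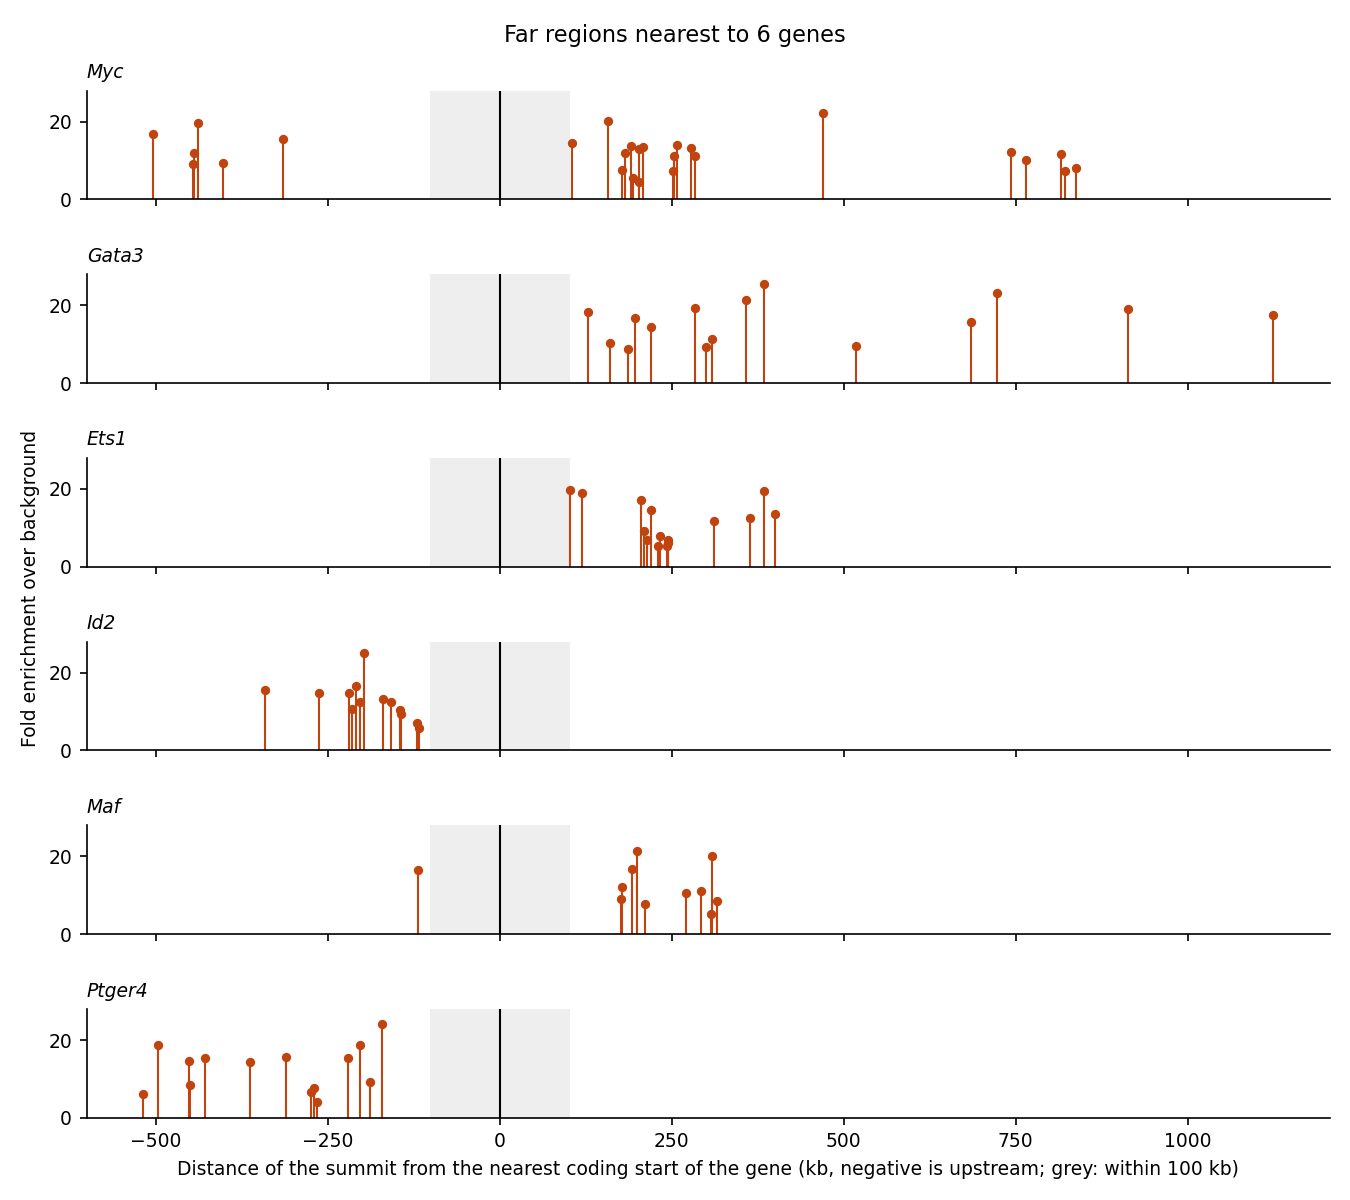
Fold enrichment of each far region nearest to Myc, Gata3, Ets1, Id2, Maf and Ptger4 against its distance in kb from the gene's nearest coding start, with upstream negative and the 100 kb on either side shaded. Regions lie on both sides of Myc, and on 1 side of Gata3, Ets1, Id2 and Ptger4.

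A gap of the nearest-gene rule was seen at Bcl11b, a T cell identity factor, in a comparison chosen after the values were seen. The stretch between Vrk1 and 3110018I06Rik held 16 far regions, 12 of them upstream of the uncharacterised gene 3110018I06Rik and nearest to it. Counted from the start of Bcl11b instead, 11 of these lay 819 to 992 kb downstream, the distance range in which a distal enhancer of Bcl11b is known in mouse T cells. The most significant of them, chr12:107183322-107183795 at 820 kb, had a fold of 12.9 and −log10 p of 97.2 and 99.2 in the 2 sets. The highest, chr12:107011352-107011814 at 992 kb, had a fold of 19.6.

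Far regions were also counted over gene lists, which hold several of the genes named above and so are no separate support for that ranking. Over 6 lists of T cell and Treg cell genes, 39 of 49 eligible genes had a far region, or 79.6%, against 17% of all eligible genes, and 26 had 3 or more, or 53.1%, against 5.35%. Far sequence given to these genes, counted with N bases, held 11.5 far regions per Mb, against 1.60 per Mb over all eligible genes. Over 4 lists of other cell types, 2 of 32 eligible genes had one, and their far sequence held 0.237 per Mb. The lists were chosen with results of these data known and are small, so these counts are descriptions.

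Naive and quiescence genes had a far region in 8 of 9 cases. Btg1, which restrains proliferation, had 14, with folds of 3.64 to 24.96, and Foxo1, which keeps T cells quiescent and supports Foxp3 expression, had 9 downstream, with a median fold of 17.4. Klf6 had 9, Lef1, a partner of beta-catenin, had 4, Bcl2, an inhibitor of apoptosis, had 3, and Bach2, a repressor of effector genes, had 2 with folds of 13.4 and 24.5. Foxp1 was eligible and had none.

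Among T cell identity and signalling genes 10 of 11 had a far region. Tox had 9, all upstream at 100.6 to 590 kb with folds of 7.32 to 15.6, and Cblb, a ubiquitin ligase that restrains receptor signalling, had 8 with a highest fold of 24.7. Zeb2, a repressor, had 4 in the middle of a desert, 1185 to 1256 kb upstream. Prkcq, the kinase PKC-theta, and Ptprc, the phosphatase CD45, had 3 each, with highest folds of 20.03 and 21.9. Zeb1 had none.

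Of the Treg core genes with far sequence, 4 of 6 had a far region. Nrp1, a surface receptor of thymus-derived Treg cells, had 8 (folds of 5.73 to 16.3), Satb1, a chromatin organiser, had 5 upstream at 232 to 350 kb (highest 20.7), and Icos, a costimulatory receptor, had 4 downstream (highest 17.1). Itgb8 and Nt5e had none. Effector and tissue Treg genes had one in 6 of 10, led by Gata3, Id2 and Maf. Prdm1, which encodes Blimp-1, had 3, at 218 to 250 kb upstream with a highest fold of 14.4, and Pdcd1 had the region of fold 32.03 given above, whose summit had more than 1 genomic copy. Without multi-copy summits the count of this list was 5 of 10. Areg, Klrg1, Nfil3 and Rora had none.

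For AP-1, NF-kB and NFAT genes the count was 6 of 7. Tnfaip3, which encodes A20, an inhibitor of NF-kB signalling, had 8 upstream at 101.5 to 170 kb, all in clusters and with a highest fold of 19.2. Jun had 7 upstream (highest 20.5) and Nfkbiz had 3 (highest 23.7). Growth and survival genes had one in 7 of 8, led by Myc and Ptger4. Pik3r1, a regulatory subunit of PI3 kinase, had 5, and Bcl2l11, which encodes the death protein Bim, had 3 with a highest fold of 25.03. Mycn had none.

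In the lists of other cell types the B cell genes had 0 of 4 (Bank1, Cr2, Ebf1 and Pax5) and the neuron and neural development genes 0 of 13, among them Sox2. Cebpb, a factor of myeloid cells that is also expressed elsewhere, had 2 far regions, so the myeloid list had 1 of 2. Of the heart, limb and muscle genes 1 of 13 had one, Gdf6, while Shh, Sox9 and Hand2 had none. Many of these genes border deserts known to hold enhancers in embryos.

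**Figure D5:**
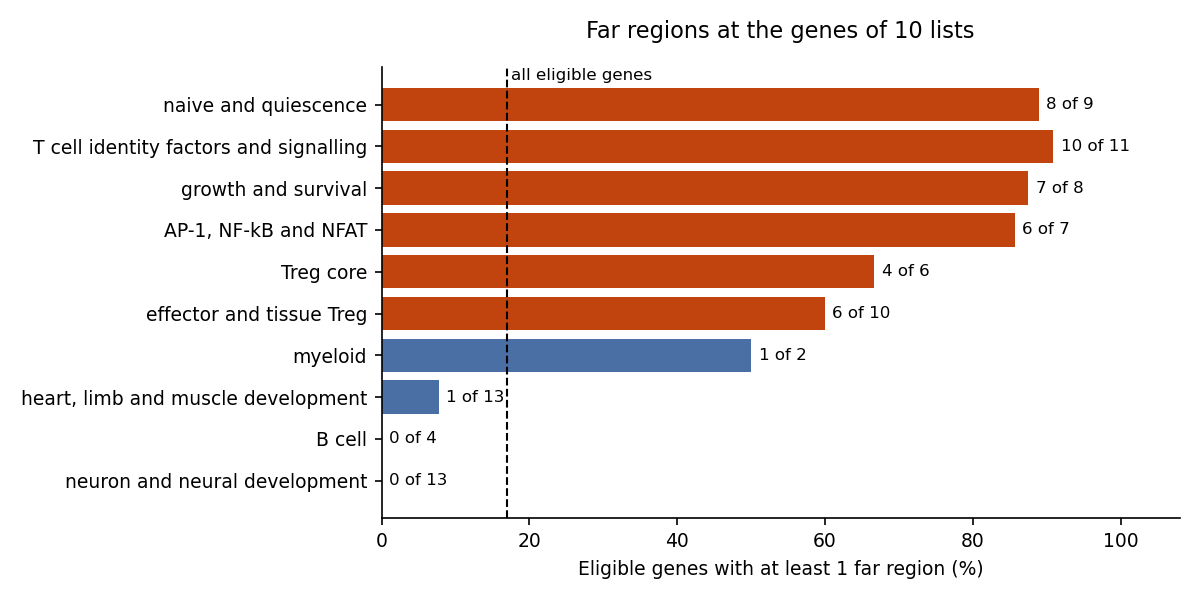
Percent of eligible genes with at least 1 far region in 6 lists of T cell genes (orange) and 4 lists of other cell types (blue), with counts beside the bars and the value of all 3215 eligible genes, 17%, as a dashed line. The T cell lists range from 6 of 10 to 10 of 11 genes, and the myeloid bar rests on 2 genes.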

How the data were processed

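Per the labels, 2 samples were technical replicates of 1 biological replicate, assembly mm10. Per the text deposited with the samples, the authors derived 3 peak lists from 1 filtered alignment, pseudoreplicated, IDR-thresholded and IDR-ranked. The lists are taken to pool both libraries. Information on aligner, caller, read shift and filters is not given in the sources used here. In the deposited lists each peak has a score (a whole number up to 1000 that follows the IDR), a fold enrichment over an unstated background (a linear ratio) and a −log10 p, all the authors'. The ranked list adds the −log10 p of the 2 sets ranked. The units were read from the column order and the values, and served only to describe or order peaks within a list, or to filter them. The lowest score in the thresholded list, 540, corresponds to an IDR of 0.05.

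Merged regions took the fold and summit of their highest peak and their greatest −log10 p. Positions were set against GENCODE M21 and the RefSeq FASTA of GRCm38.p6 (mm10), whose 21 chromosomes held every peak. Classes were promoter (within 1000 bp of a coding start), far intergenic, near intergenic and gene body. Regions deep in a coding gene were a part of the gene body class. Far sequence is all bases without N that meet the rule, except that far sequence given to genes was counted with N bases. A set of 25 motifs was searched on both strands within 50 bp of the summit. Copies of summit 31-mers were counted over the 21 assembled chromosomes only. Shares have exact Clopper-Pearson 95% intervals, medians order-statistic intervals, and differences of shares intervals combined from both. Genes were named by a written rule, covering the 15 genes with most far regions, the flanks of the 10 fullest stretches, the highest and farthest regions and listed genes with 3 or more. In all 10 gene lists with 193 entries were used. Counts of a list include some genes whose own values are not reported here. The members, lists and motifs were chosen with earlier results of these data known. Computation used Python 3.11.15, numpy 2.4.6, pandas 2.3.3 and scipy 1.17.1, and was tested on simulated data. No alternative other than those in the closing section was tried.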

Additional observations from a re-analysis of the deposited data

How the results depend on the processing

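Over 15 other settings and 2 chosen after seeing the data (regions sharing mitochondrial 31-mers left out, and regions near antigen receptor segments left out), the differences between far and near intergenic regions in the shares with RUNX, AP-1, joint ETS-RUNX and CTCF motifs, the ones recomputed, kept their sign in the 12 settings that bear on them. The RUNX interval excluded 0 in all 12. The AP-1 interval reached 0 at 200 kb (1.79 points, −0.61 to 4.56), among the upper 50% by fold (2.48, −0.01 to 5.25) and with every gene type (3.98, −1.40 to 11.2). The joint site's did so at 50 kb (0.93, −0.02 to 1.93), in windows of 25 bp (0.61, −0.32 to 1.69), among the upper 50% (1.65, −0.22 to 3.84), with every gene type (2.79, −1.12 to 8.88) and without receptor loci (1.04, −0.16 to 2.40), and that of CTCF with every gene type (−4.07, −7.48 to 1.60). With the pseudoreplicated list there were 3268 far regions, 6.17% of all, with a density ratio of 0.191, a median fold of 7.58, a median width of 409 bp, more than 1 summit in 28.9%, 43.3% in clusters, and AP-1, ETS and RUNX letters in 9.94%, 14.8% and 15.7%. A far region was then present at 27.1% of eligible genes and 7 of 32 genes of other cell types. At an IDR of at most 0.01 the share was 4.62%, the density ratio 0.143, the median fold 14.5, the width 633 bp, 47.3% had more than 1 summit, 16.03% stood in clusters, 14.1% of genes had one and 1 of 32 genes of other cell types did. Among the upper 50% of regions by fold there were 709 far regions with a median fold of 17.0 and width of 664 bp, more than 1 summit in 46.8%, 2.68% in clusters, ETS letters in 19.6%, 12.3% of genes and 0 of 32 genes of other cell types.

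Beyond 50 kb there were 2906 regions (9.88% of all, density ratio 0.243), with 46.5% of more than 1 summit, 26.8% in clusters, 20.2% of genes, RUNX letters in 16.2% and a RUNX difference from near regions of 2.46 points. Beyond 200 kb there were 620 (2.11%, ratio 0.0924), with a width of 562 bp, 20.5% in clusters, 13.1% of genes, RUNX letters in 22.3%, a RUNX difference of 8.32 points, and 25 of 37 T cell list genes against 1 of 22 of other cell types. Counting every annotated gene type left 124 regions (0.422%, ratio 0.0617), with a width of 550 bp, 11.3% in clusters, 1.87% of genes, RUNX letters in 22.6%, a RUNX difference of 8.16 points, 0% near a noncoding start by construction, and 7 of 49 T cell list genes against 0 of 32. With each summit taken singly there were 2347 (4.04%, ratio 0.125), with a fold of 9.51, a width of 694 bp, 56.9% in clusters, AP-1, CTCF, ETS and RUNX letters in 9.12%, 4.05%, 13.8% and 14.8%, and a CTCF difference of −2.78 points.

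A motif window of 25 bp gave AP-1 7.24%, CTCF 3.93%, ETS 9.61% and RUNX 10.5%, and one of 100 bp gave AP-1 17.5%, ETS 24.1% and RUNX 26.5%. Chaining gaps of 5 and 25 kb put 8.73% and 41.1% in clusters. Giving regions to both flanking genes raised the share of genes to 24.97% and the genes of other cell types to 7 of 33. A window of 2 kb put 13.2% near a noncoding start, and without receptor loci 8.68% were within 1000 bp of one. Leaving out multi-copy summits or mitochondrial matches moved none of the main values beyond their intervals. Of the values for single motifs and lists, 76 of 363 moved beyond theirs, mostly with the motif windows and with every gene type counted. Where no construction shows it, the cause was not tested. No paired analysis was possible because there was 1 group and the lists do not separate the replicates. Replicates could not be left out for the same reason. With 1 animal, unknown depth and folds whose background is unstated, these values describe the pooled lists and carry no error between animals.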

Other observations

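The pseudoreplicated list held 1793 far regions that the IDR-thresholded list did not overlap, 54.9% of its 3268 far regions, against 23608 of its 52972 regions of any place (44.6%). They were lower and narrower, with a median fold of 5.38 and a median width of 311 bp, against 12.8 and 584 bp for far regions of the thresholded list. CTCF motifs marked 7.86% of them (6.66 to 9.21%) against 5.62% of thresholded far regions, RUNX letters 13.3% against 18.6%, ETS letters 12.6% against 17.5% and AP-1 letters 8.48% against 11.7%. Summits with more than 1 genomic copy made up 7.03% of them, against 3.93%.

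The lowest far region of the thresholded list, near Nfkbiz, had a fold of 2.48 and a −log10 p of 4.44 in the pooled values but 34.4 and 39.8 in the 2 ranked sets. The next lowest, near Adgrl2, had a fold of 2.87 and a −log10 p of 4.79 against 31.1 and 34.1 in the sets.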
